A study of Mus musculus with 12 samples.

Results

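Lung epithelial marker genes were followed through the Mirlet7d tables of MLE-12 cells, a mouse lung epithelial line derived from tumours driven by a viral large T antigen under the surfactant protein C promoter. The 6 genes were Sftpb, Etv5, Sox9, Scgb1a1, Muc1 and Lamp3, out of 5714 genes named in the 3 gene tables of the series. They were chosen by name, with their listing, pull-down folds and peak scores in these same tables already known, so all their values are descriptions and none of them was tested. The members accounted for 3 of 1964 listed mRNA transcripts, 0 of 2432 promoter-associated ncRNAs and 9 of 4286 ChIRP-seq peaks. Sox9, Muc1 and Lamp3 stood in the mRNA list, Sftpb, Etv5, Sox9 and Scgb1a1 in the peak list, and Sox9 alone in both.

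The series holds 12 libraries, each the single library of its group, and 3 of them stand behind the tables used here. For the pull-down, which asked which nuclear RNAs interact with Mirlet7d, MLE-12 cells received 25 nM of biotinylated Mirlet7d for 48 h. RNA held on streptavidin beads was sequenced beside an input library without capture, with depletion of ribosomal RNA and pre-amplification, and no pull-down with the random microRNA was analysed here. ChIRP-seq recovers the DNA bound by an RNA with biotinylated oligonucleotides complementary to that RNA. Here MLE-12 chromatin labelled as Mirlet7d gain of function was incubated with 150 pmol of probes against the mature microRNA. An input library belongs to the ChIRP-seq, and whether the peaks were called against it is not given in the sources used here. With 1 cell line and 1 library a group, no p-value was computed. The tables are selected lists, with a lowest fold of 2.5 and a lowest peak score of 30.01. A gene missing from them has no value here, and the identity of the line could not be checked against its defining markers.

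Alveolar type 2 cells line the air spaces, secrete surfactant and renew the alveolar surface, while club cells are secretory cells of the conducting airways. Sftpb encodes surfactant protein B, which spreads surfactant lipids at the air-liquid interface, and its promoter is a classical target of the lung lineage factor NKX2-1. FGF signalling maintains ETS factors such as ETV5 and the SOX9-positive distal progenitors of the branching lung. MicroRNAs of the let-7 family pair with their target RNAs mainly through the seed, the bases 2 to 8 of the mature strand.

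The mature strands are shown because the pull-down bait and the ChIRP-seq probes both refer to them, and the labels do not say which arm the bait carried. Capitals mark the seed, and the sequences are those of RefSeq (GRCm38.p6, chromosome 13, minus strand).
mmu-let-7d-5p: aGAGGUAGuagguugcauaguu
mmu-let-7d-3p: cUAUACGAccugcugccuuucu
Within that RefSeq set, 11 mature mouse microRNA names share the seed of the 5p arm.

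Upstream promoter sequence is shown for the gene with the promoter peak, Sftpb, and for the member whose promoter window held the DNA match of the let-7 seed, Lamp3. Both are the 250 bases before the RefSeq start in GRCm38.p6, Sftpb at chr6:72304360-72304609 on the plus strand and Lamp3 at chr16:19706366-19706615 on the minus strand. Capitals mark a match to CTNGAGT, the longer form of an NKX2-1 core, in Sftpb, and to CTACCTC, the reverse complement of the let-7d-5p seed, in Lamp3.
Sftpb: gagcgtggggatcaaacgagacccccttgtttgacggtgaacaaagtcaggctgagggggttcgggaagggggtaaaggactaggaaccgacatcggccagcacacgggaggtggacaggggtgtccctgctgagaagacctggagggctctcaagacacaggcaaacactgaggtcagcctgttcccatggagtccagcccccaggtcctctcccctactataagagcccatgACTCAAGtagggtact
Lamp3: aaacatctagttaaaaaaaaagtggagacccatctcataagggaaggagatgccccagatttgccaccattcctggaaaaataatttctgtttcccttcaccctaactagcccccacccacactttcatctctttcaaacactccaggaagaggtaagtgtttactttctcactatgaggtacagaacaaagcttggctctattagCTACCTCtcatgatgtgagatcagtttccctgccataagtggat
The Sftpb match reads ACTCAAG, the other strand of the motif, at positions -16 to -10 from the start. The Lamp3 match lies on the sense strand at positions -44 to -38. RefSeq windows of 250 bases before to 50 bases after the start existed for 4 of the 6 genes, with a pair of starts for Etv5. CTACCTC, sought on both strands, was found in the Lamp3 window and in no other of these windows, and in 3.85% of all 32851 mouse windows. CTNGAGT was found in the windows of Sftpb, Lamp3, Muc1 and 1 of the Etv5 starts, and in 14.0% of all windows. CAAG, the short NKX2-1 core, which can overlap the longer one on the same bases, occurred 4 times in Sftpb, 3 times in Lamp3, 3 times in Muc1 and once in each Etv5 window, and at least once in 90.6% of all windows. GGAAG, an ETS core, occurred once in Sftpb, 2 times in Lamp3, once in Muc1 and 4 times in 1 Etv5 window, against 71.4% of all windows with a match. TATAAA was matched in Muc1 alone among the members, at -31 to -26, against 13.6% of all windows. GGGCGG, the GC box, was matched in Muc1 and 1 Etv5 window and in 35.7% of all windows, CANNTG in the same windows and in 72.3%, and ACAAT, a SOX core, in no member window and in 31.0%. GC content was 58.3% in the Sftpb window, 43.7% in Lamp3, 55.7% in Muc1, and 74% and 60% in Etv5, against a median of 52.7% over all windows. A match is a description of letters and not a bound site.

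Sftpb held the highest peak of the 6 genes. Its promoter peak had a deposited score of 117.1, lay at chr6:72253383-72255316 (mm9), and was centred at -255 bases from the transcription start (negative is upstream). Over the whole list it ranked 37 of 4286, on chromosome 6 it ranked 12 of 638, and among promoter peaks it ranked 5 of 405. The median promoter peak scored 36.09 and the median peak 34.3. Only 0.909% of the 3192 genes with a peak had a best score at or above that of Sftpb.

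The Sftpb peak was also broad. It spanned 1934 bases, against a median of 646 bases, and reached from -1221 to 712 bases around the start computed from the file, which is more on each side than the promoter window printed above covers. Whether that mm9 start and the GRCm38.p6 start are the same base was not checked. Across all 4286 peaks higher scores went with wider peaks, with a Spearman correlation of 0.43, a description over peaks of 1 library. The promoter peaks just above it in score belonged to Rn4.5s (137.75), a multicopy small RNA, Nfkb2 (130.23), an NF-kappa-B subunit, and Morc3 (128.81). Those just below belonged to Rn4.5s again (112.96), Cuedc2 (105.81) and Lrrc45 (98.44). The last was assigned to Lrrc45 by the nearest start and annotated to the promoter of Cenpx.

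Sftpb had a pair of further peaks, both intergenic and upstream. One scored 42.48 at -27112 bases and the other 34.25 at -9439 bases from the start, the weaker one over a SINE of the B3A family. The 3 distances gave the same start position, so they refer to a single annotated transcript start. Of all genes with a peak, 77.4% had 1 peak and 6.67% had 3 or more.

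No Sftpb mRNA was in the pull-down list, but an ncRNA candidate lay downstream of its start. The candidate covered chr6:72262078-72263281 (mm9), from 7474 to 8677 bases downstream of the start, and was entered under a pair of identifiers with the same span and values. The RefSeq gene is 9764 bases long in GRCm38.p6, so the candidate falls within that length, and no strand is given for it. It had 11.108 RPKM in the pull-down, against 1.377 RPKM in the input, a fold of 8.07. These values correspond to 200 reads in the pull-down and 16 reads in the input, taken as 100 and 8 pairs. The exact 95% interval of the fold was 3.94 to 19.2, counting error only, over pairs. Of all 6208 ncRNA candidates, 30.8% had a fold at or above 8.07. An ncRNA candidate lay within 10 kb of 24.7% of promoter peaks and of 12.4% of all peaks. Whether its reads come from Sftpb transcripts or from a separate RNA cannot be told apart without strand.

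**Figure D1:**
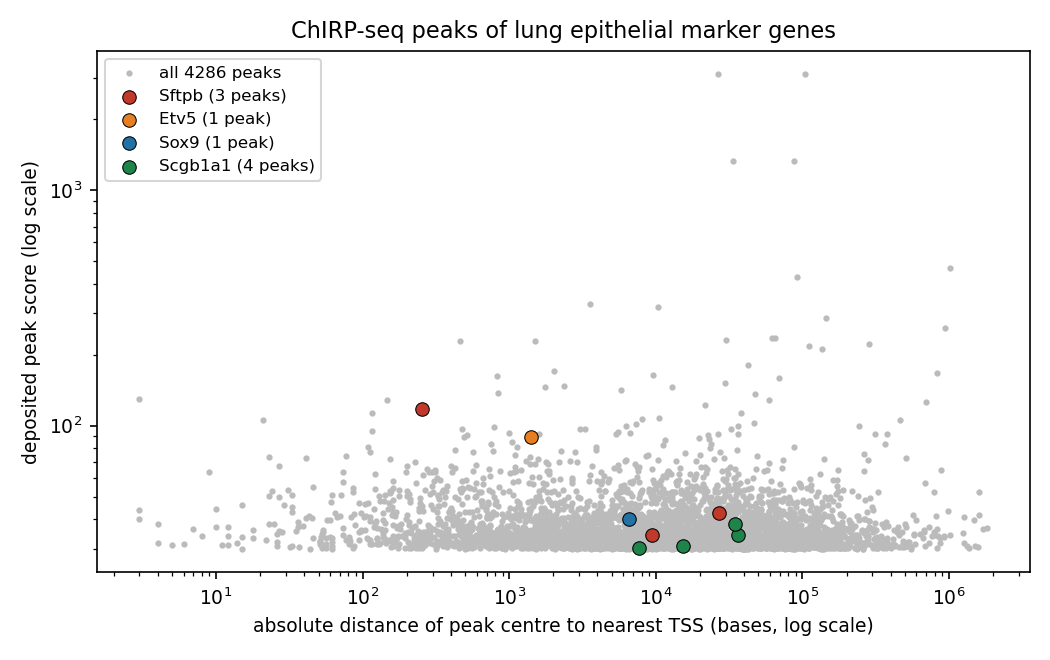
Deposited ChIRP-seq peak score (log scale) against the absolute distance in bases from peak centre to the nearest transcription start (log scale), for all 4286 peaks in grey and the 9 peaks of Sftpb, Etv5, Sox9 and Scgb1a1 in colour. The Sftpb promoter peak at 117.1 and the Etv5 peak at 89.37 stand above most peaks, and the other 7 peaks of these genes score 42.48 or less.

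Etv5, an ETS factor downstream of FGF signalling that also supports alveolar type 2 cells, had the next highest peak. It scored 89.37, was classed as intergenic, and was centred at -1414 bases from the start, at chr16:22440457-22441658 (mm9). It ranked 66 of 4286 over all peaks, 5 of 387 on chromosome 16 and 41 of 1716 among intergenic peaks. It spanned 1202 bases and ran from -2015 to -814 bases from the start, so the bases nearest the start were outside it. Only 1.75% of genes with a peak had a best score at or above that of Etv5. No transcript or promoter-associated ncRNA of Etv5 was listed, the next peak was 106.3 kb away and the nearest ncRNA candidate 188.5 kb away.

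Sox9, the SOX factor of distal lung progenitors, was the member of the 6 genes with both kinds of entry. Its transcript (chr11:112643538-112649074, mm9) had 1.29 RPKM in the pull-down, against 0.227 RPKM in the input, a fold of 5.68. That is 300 reads in the pull-down and 30 reads in the input, with an exact 95% interval of 3.89 to 8.56 for counting error. The fold stood 859th of 1964, near the list median of 4.93, while the input was at or above that of 81.3% of the list. Its peak scored 40.16, was intergenic and was centred at -6591 bases from the start, at chr11:112636564-112637302. That peak ranked 1044 of 4286, 189 of 625 on chromosome 11 and 401 of 1716 among intergenic peaks. A best score at or above 40.16 was reached by 28.8% of genes with a peak. No other peak lay within 250 kb of the gene, where the density of chromosome 11 would place 2.63, and the next one was 585.4 kb away.

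Scgb1a1, the secretoglobin of club cells, had 4 peaks, all on the downstream side of its start. A best score at or above its 38.11 was reached by 34.5% of genes with a peak. Their scores were 38.11 at 34839 bases, 34.18 at 36159 bases, 30.82 at 15222 bases and 30.21 at 7735 bases from the start. Their ranks were 1290, 2180, 3679 and 4074 of 4286, and the lowest was close to the lower limit of the list. The first 3 lay in introns of Ahnak, a neighbouring gene for a giant scaffold protein, one of them over a SINE of the B1 family. The last was intergenic. The assignment to Scgb1a1 is thus that of the nearest start. Of the 9 peaks of the 6 genes, these 3 were annotated to a transcript of another gene symbol, against 16.8% of all peaks. That share also counts promoter and transcript-end annotations and genes entered under an older name. Peaks assigned to Ahnak itself scored from 31.89 to 55.57. Of genes with a peak, 2.57% had 4 or more.

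Muc1, a membrane mucin of the apical epithelial surface, had the highest listed fold of the 3 transcripts and the fewest reads. Its transcript (chr3:89032979-89037303, mm9) had 0.242 RPKM in the pull-down, against 0.01 RPKM in the input, a fold of 24.2. This was 44 reads in the pull-down and 1 read in the input, so the exact 95% interval ran from 4.25 to 1009. Folds at or above it made up 10.3% of the list, and 18.6% of listed transcripts rested on at most 1 input read. The rounding of the deposited RPKM alone allowed folds of 23 to 25.5, and with a pseudocount of 0.1 RPKM the fold was 3.11. Muc1 had no peak, and the next peak was 95.3 kb away. It lay on chromosome 3, with 81 peaks in all.

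Lamp3, a lysosomal membrane protein found on the lamellar bodies in which alveolar type 2 cells store surfactant, had the lowest fold. Its transcript (chr16:19653474-19706458, mm9) had 0.132 RPKM in the pull-down, against 0.04 RPKM in the input, a fold of 3.3. This came from about 294 reads in the pull-down and 51 in the input, over a span of 52984 bases with introns included. The exact 95% interval of 2.42 to 4.62 reached below the listing limit of 2.5. The fold stood 1392nd of 1964, and no peak lay within 250 kb, where the chromosome density would place 2.18. The order of the folds was Muc1, Sox9 and Lamp3, but the interval of Sox9 overlapped those of both others. The interval of Muc1 also overlapped that of Lamp3. With a pseudocount of 0.1 RPKM the order was Sox9 (4.25), Muc1 (3.11) and Lamp3 (1.66).

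**Figure D2:**
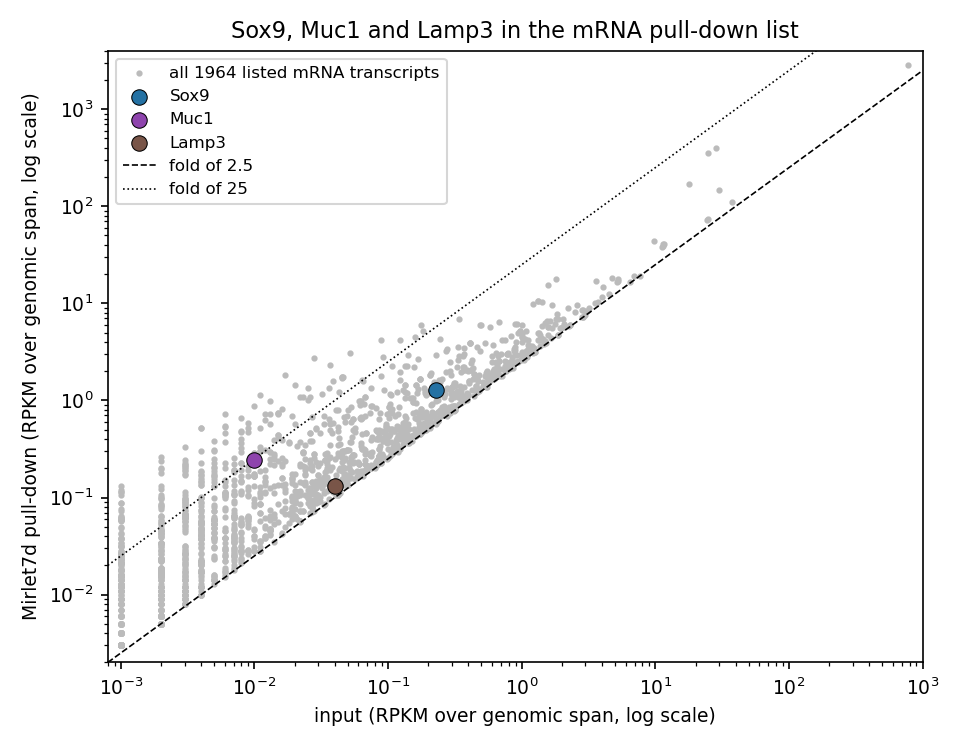
Pull-down against input RPKM (both log scale, over the genomic span) of all 1964 listed mRNA transcripts in grey, with Sox9, Muc1 and Lamp3 in colour, and lines at a fold of 2.5 and of 25. Muc1 lies close to the line at 25 with an input of 0.01 RPKM, Lamp3 just above the line at 2.5, and Sox9 at a higher input of 0.227 RPKM.

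**Figure D3:**
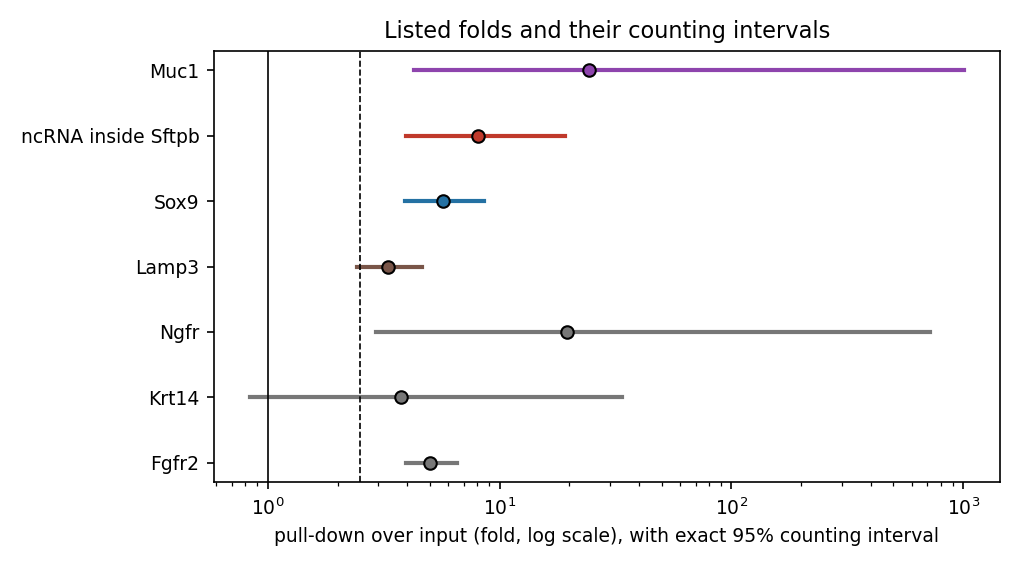
Fold of pull-down over input (points, log scale) with the exact 95% interval for counting error (lines) for Muc1, the ncRNA candidate inside Sftpb, Sox9 and Lamp3 in colour, and for Ngfr, Krt14 and Fgfr2 in grey. The solid line marks a fold of 1 and the dashed line the listing limit of 2.5, which the Lamp3 and Krt14 intervals cross.

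The surroundings of the 6 genes differed. Within 50 kb of the strongest Sftpb peak lay 4 other peaks, against 0.435 from the peak density of chromosome 6, and 2 of these 4 were its own weaker peaks. On chromosome 6, 9.09% of peaks had at least as many others within 50 kb, and the median peak had 1. Scgb1a1 had 5 other peaks within 50 kb of its strongest, 3 of them its own, against 0.559 from density, and 8.53% of chromosome 19 peaks had at least as many. Etv5, Sox9, Muc1 and Lamp3 had no other peak in that window. With a window of 250 kb the counts were 12 for Sftpb, 12 for Scgb1a1, 3 for Etv5, 2 for Muc1 and none for Sox9 and Lamp3.

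Pulled-down ncRNAs were distributed otherwise. Within 50 kb, Muc1 had 5 ncRNA candidates, against 0.204 from density, Sftpb had 4 and the other 4 genes none. Entries that overlap share reads. Merged, they made 3 regions for Muc1, against 0.155 from the density of such regions, and 2 for Sftpb, against 0.192. These densities are means over the whole chromosome. On chromosome 6, 33.1% of peaks had an ncRNA candidate within 50 kb, and no such share was computed for Muc1. Within 250 kb Muc1 had 15 entries in 9 regions, Sftpb 7 in 3, Scgb1a1 3 in 3 and Etv5 1. The Muc1 neighbour nearest to it was an ncRNA at the promoter of Thbs3, with 2.725 RPKM in the pull-down and an input of exactly 1 RPKM, for which no interval was computed. A second, at the Fam189b promoter, had a fold of 37.33 from 2 input reads, with an interval of 6.46 to 1504. All other Muc1 entries within 50 kb also had an input of exactly 1 RPKM and no interval. The Sftpb entries upstream of its start each rested on 2 input reads, with intervals of 1.15 to 331 and 0.692 to 229. The nearest listed mRNA to Sftpb was Mat2a, the enzyme that makes S-adenosylmethionine, 128.2 kb downstream. Mat2a had 147.655 RPKM in the pull-down, against 30.07 RPKM in the input, a fold of 4.91 with an interval of 4.77 to 5.06.

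**Figure D4:**
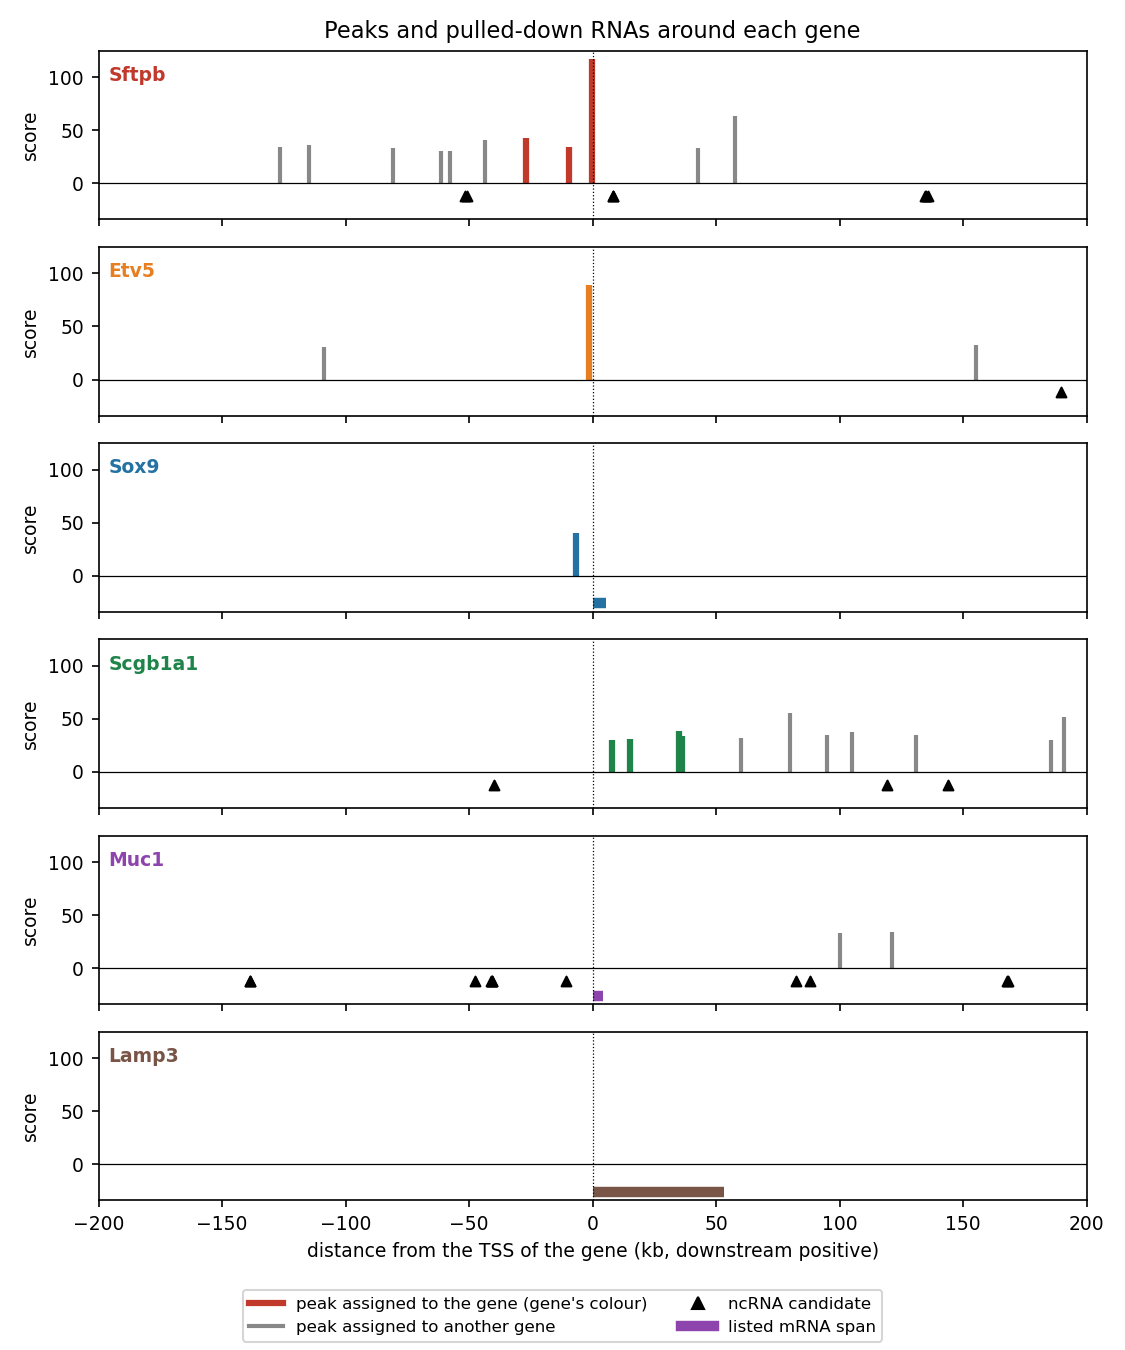
Peaks (vertical bars, height is the deposited score), ncRNA candidates (triangles) and listed mRNA spans (thick bars) within 200 kb of the transcription start of each of the 6 genes; the x axis is distance in kb with downstream positive, and peaks assigned to the gene are in its colour. Sftpb and Scgb1a1 have several peaks of their own and others around them, Etv5 has 1 of its own with 2 peaks of other genes and an ncRNA candidate far from it, and Sox9 has 1 of its own. Muc1 has ncRNA candidates and 2 peaks of other genes but none of its own, and Lamp3 has its transcript alone.

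The wider lung epithelial lists hold 61 genes, the 6 included. In the mRNA list stood 5 of these 61 (8.20%), against 7.16% of all protein-coding genes. The other entries were the basal cell genes Ngfr, with a fold of 19.5 from 1 input read, and Krt14, with 3.74 from 2 input reads. Without the 6 genes the count was 2 of 55. Among promoter-associated ncRNAs 1 of 61 was listed (1.64%), against 6.17% of all curated RefSeq genes. That was the club cell secretoglobin Scgb3a1, with 3.638 RPKM in the pull-down and an input of exactly 1 RPKM. The 6 genes were part of what defined these counts, so nothing is read from them.

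The counts of lung genes nearest to a peak include 4 genes chosen with their peaks known, so nothing is read from them. The count was 13 of 61 (21.3%), against 12.1% of all curated genes, and 9 of 55 (16.4%) without the 6 genes. Within 10 kb of the start it was 9 of 61 (14.8%), against 5.96% of all curated genes, and 5 of 55 without the 6 genes. Chromosomes 6, 8, 11, 16 and 19 held 62.2% of all peaks, and Sftpb, Etv5, Sox9 and Scgb1a1 all lie on them. On these 5 chromosomes 9 of 18 lung genes had a peak (50%), against 27.7% of all genes there, and 5 of 13 without the 6 genes. On the other chromosomes it was 4 of 43 (9.30%), against 7.25% of all genes there, and 4 of 42 (9.52%) without the 6 genes. The part of this unequal coverage in the lung counts was not tested beyond these values.

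Among lineage factors, Nkx2-1, the master factor of lung identity, carried a promoter peak scoring 35.38 at -869 bases from its start. Foxa2 (35.32) and Foxp1 (5 peaks, best 33.89), forkhead factors of lung development, had their best peaks at -139414 and 37750 bases from their starts. The alveolar type 1 gene Hopx scored 35.32 at -39915 bases, and its peak within 10 kb scored 30.33 at -6874 bases. The ciliated cell gene Tppp3 scored 43.39 at 4167 bases and the basal cell factor Trp63 34.07 at -34575 bases. The keratins Krt18 (33.14) and Krt19 (32.29) and the adhesion gene Cdh1 (31.75) stood for the pan-epithelial list. The median best score over genes with a peak was 34.915, which Cdh1, Krt18, Krt19, Trp63 and Foxp1 did not reach. Of the 14 genes of the alveolar type 2 list, Sftpb and Etv5 were the 2 nearest to a peak (14.3%), close to 12.1% of all curated genes. Both were chosen with their peaks known, and Sftpc, Abca3 and the rest were not nearest to a peak.

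Of 13 FGF and ETV signalling genes, 3 were nearest to a peak, against 12.1% of all curated genes. Besides Etv5 these were the adaptor Grb2, with a promoter peak of 37.3 at -515 bases, and Etv4 (36.98), whose best peak lay in an intron of Dhx8. The receptor gene Fgfr2 was the mRNA entry, with 0.156 RPKM in the pull-down, against 0.031 RPKM in the input, and a fold of 5.03 with an interval of 3.94 to 6.54. By family, 4 of 7 Etv genes had a peak at any distance, against 12.1% of all curated genes. Within 10 kb it was 2 of 7, against 5.96% of all curated genes. Etv3 scored 33.2 and Etv6 30.14. Etv4, Etv5 and Etv6 lie on the chromosomes rich in peaks, where 27.7% of all genes were nearest to a peak. Sox genes had 4 of 19 in the mRNA list, against 7.16% of protein-coding genes, and of these Sox13, Sox30 and Sox10 each rested on 1 input read. Nearest to a peak were 3 of 19, Sox10 (41.19), Sox9 (40.16) and Sox6 (31.44), against 12.1% of all curated genes. Sox10, like Sox9, was thus in both lists. Among 14 mucin names, 11 of them in the reference, 3 were in the mRNA list, against 7.16% of protein-coding genes. These were the chosen gene Muc1, Muc13 (2.88) and Muc6 (2.66). Muc4, with an exonic peak of 60.64, was the 1 mucin of the 11 nearest to a peak, against 12.1% of all curated genes.

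Markers of other cell types were in the same tables. Endothelial markers had 4 of 10 nearest to a peak, namely Vwf (54), Pecam1 (47.86), Egfl7 (40.01) and Erg (32.38). Mesenchymal markers had 2 of 10, Vim (43.99) and Col1a1 (38.17), and immune markers 1 of 10, Klrb1c (34.64), against 12.1% of all curated genes. In the mRNA list the counts were 2 endothelial, 2 mesenchymal and 1 immune gene of 10 each, against 7.16% of protein-coding genes. Within 10 kb of the start the peak counts were 1 endothelial, 2 mesenchymal and 0 immune genes of 10 each, against 5.96% of all curated genes. The lung count there was 9 of 61 (14.8%) with the 6 chosen genes and 5 of 55 (9.09%) without them. The endothelial share within 10 kb (10%) lay between these lung shares, and the mesenchymal share (20%) above both. Over all distances the endothelial share was above that of the lung genes. The lists of other cell types were not split by chromosome. Pecam1, Vwf and Erg lie on the chromosomes rich in peaks, where 27.7% of all genes were nearest to a peak. No difference between these lists was tested.

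**Figure D5:**
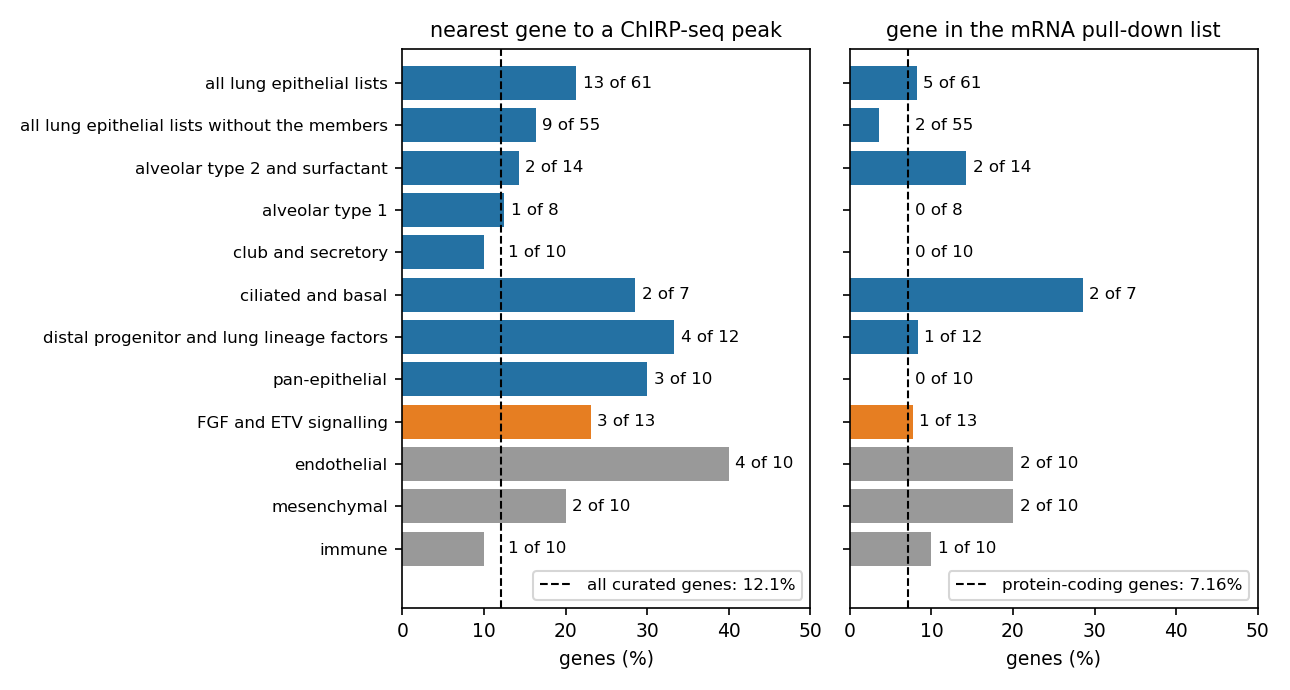
Percentage of the genes of each list that are nearest to a ChIRP-seq peak (left) or present in the mRNA pull-down list (right), with the counts beside the bars. Blue bars are lung epithelial lists, orange FGF and ETV signalling and grey other cell types, and the dashed lines mark 12.1% of all curated genes and 7.16% of protein-coding genes; the 61 lung genes reach 21.3% and 8.20%.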

How the data were processed

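RNA pull-down and ChIRP-seq tables of MLE-12 cells were used as deposited, in mm9 coordinates. Tools named in the submitters' processing notes are Bowtie2, MACS and HOMER, beside Picard 1.119, bedtools 2.15, SAMtools, Trimmomatic and FastQC. The pull-down tables give RPKM values that the authors deposited per transcript, with a length that equals end minus start, so introns count. The fold in them is the deposited ratio of pull-down to input RPKM, listed from 2.5. Peaks carry a deposited score from the peak caller, and its scale is not given in the sources used here.

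Whole reads were recovered from RPKM and length. The read totals behind the RPKM, in units of 1e6 reads, were 42.0 for the pull-down and 23.9 for the input in the mRNA table, and 15.0 for the pull-down and 9.66 for the input in the ncRNA table. All values used (100%) fell within 0.15 reads of a whole number. Exact 95% Clopper-Pearson intervals of the fold come from these reads, from pairs for ncRNAs. Pairs are an assumption, since some recovered ncRNA counts were odd, such as 169 and 3 reads at the Rusc1 promoter. For mRNAs each read was counted by itself. PCR copies are not independent molecules, so the intervals cover counting error only. An input of exactly 1 RPKM got no interval. No count test was run, since each group holds 1 library.

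The 6 genes and the marker lists were chosen with earlier results of these data known. Named were the 6 genes, the listed members of the marker lists, the nearest peaks in score and the nearest RNAs. Symbols were matched to RefSeq (GRCm38.p6), leaving 1 of 1509 mRNA names, 6 of 1624 promoter ncRNA names and 14 of 3192 peak names unmatched. Python 3.11.15, pandas 2.3.3 and scipy 1.17.1 were used, and the read recovery was tested on simulated data. Libraries of the other assays of the series were not analysed here.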

Additional observations from a re-analysis of the deposited data

How the results depend on the processing

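With 1 library a group, no replicate could be left out. No paired analysis was possible because each group holds 1 library. A fold of at least 5 left 3 of the 5 lung epithelial genes in the mRNA list, against 49.6% of all listed transcripts, and 0 of 1 among promoter-associated ncRNAs. A peak score of at least 40 left 4 of 13 lung genes, the chosen Sftpb, Etv5 and Sox9 with Tppp3. Of all genes with a peak, 28.8% had a best score at or above 40.16. The chromosomes poor in peaks alone, an alternative chosen after seeing the data, also left 4 of 13. A pseudocount of 0.1 RPKM lowered the fold of Muc1 to 3.11 and that of Lamp3 to 1.66, while Sox9 had 4.25. With 0.01 RPKM the folds were 12.6 for Muc1, 2.84 for Lamp3 and 5.49 for Sox9. Without the peaks annotated to another gene symbol, also chosen after seeing the data, 13 lung genes still had a peak. The Scgb1a1 score was 30.21 when the peak nearest to the start was taken. Windows of 10 and 250 kb held 2 and 29 other peaks, against 9 at 50 kb, and 3 and 26 ncRNA candidates, against 9. On the sense strand only, the shares of promoter windows were 1.79% for CTACCTC, 46.9% for GGAAG, 7.20% for CTNGAGT, 70.8% for CAAG, 17.9% for ACAAT, 8.32% for TATAAA and 23.4% for GGGCGG. Each of the shifts given here follows from how the alternative is built. The low input count limits Muc1 most, since 1 read sets its fold.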
